A study of Mus musculus with 10 samples.

Results

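HEB ChIP-seq summits were described on unplaced scaffolds, at the start of chromosome 9 and in 6 bins of 1 Mb named multicopy gene clusters. They made up 340 of the 2049 summits in the lists analysed here. They were chosen by position in mm10: every summit on a sequence whose name starts chrUn_, every summit on chromosome 9 below 3.1 Mb, and every summit in the bins of 1 Mb that begin at 85 Mb on chromosome 1, 3 Mb on chromosome 4, 15 Mb on chromosome 5, 20 Mb on chromosome 8, 3 Mb on chromosome 11 and 31 Mb on chromosome X. The siNT list gave 140 of its 560 summits (25%), and the siID4 list gave 200 of its 1489 (13.4%). The places were picked because their counts and scores in these same lists were high, so counts and scores are given below as a description and were not tested.

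The cells were Comma-Dβ, a mouse mammary epithelial line, at passage 28. They had been transfected with 20 nM of a non-targeting siRNA pool (siNT) or of a pool against Id4 (siID4) and harvested 48 h later. The labels list 3 HEB libraries for each siRNA and 4 inputs without siRNA or antibody that serve both arms. There was 1 summit list for each siRNA, so no value has an error between replicates and no difference between the siRNAs has a replicate check. Each share has a 95% interval by the exact binomial (Clopper-Pearson) method. It covers counting error only: a summit is no replicate of a treatment, and the lists share their inputs. Read depth per library is unknown.

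HEB, encoded by Tcf12, belongs to the E-proteins, helix-loop-helix factors that bind DNA as dimers at the E-box CANNTG. ID4 has a helix-loop-helix but no basic region, and it pairs with E-proteins without binding DNA itself. An unplaced scaffold is assembled sequence that has not been given a chromosome. Multicopy gene clusters arise by repeated duplication, and a short read from a sequence with near-identical copies can match several places. Mappability and the inputs' coverage were not analysed here, so their part in the values below was not tested.

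The printed promoters show how alike copies are in the clusters on chromosomes 1 and 5. For chromosome 8 only 1 promoter is printed, and its copies are compared below. Each run is the 250 bases before a RefSeq start site (GRCm38.p6, the assembly behind mm10), written 5′ to 3′ on the gene's strand, with any CANNTG in capitals. The first 3 belong to chromosome 1, where Sp140 encodes a chromatin reader of nuclear bodies: A530032D15Rik at chr1:85109854-85110103 on the minus strand, C130026I21Rik at chr1:85270567-85270816 on the minus strand and Sp140 at chr1:85600453-85600702 on the plus strand. The next 3 come from the Speer cluster on chromosome 5, whose named members encode spermatogenesis-associated glutamate-rich proteins: Gm21149 at chr5:15476537-15476786, Speer4c at chr5:15714272-15714521 and Gm17019 at chr5:15033008-15033257, all on the minus strand. The last is Gm15319 at chr8:20363203-20363452 on the minus strand.
A530032D15Rik: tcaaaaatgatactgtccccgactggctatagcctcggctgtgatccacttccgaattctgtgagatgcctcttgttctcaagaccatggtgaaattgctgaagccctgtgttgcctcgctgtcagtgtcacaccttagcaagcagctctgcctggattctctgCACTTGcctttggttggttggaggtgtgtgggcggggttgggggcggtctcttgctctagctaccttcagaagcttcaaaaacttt
C130026I21Rik: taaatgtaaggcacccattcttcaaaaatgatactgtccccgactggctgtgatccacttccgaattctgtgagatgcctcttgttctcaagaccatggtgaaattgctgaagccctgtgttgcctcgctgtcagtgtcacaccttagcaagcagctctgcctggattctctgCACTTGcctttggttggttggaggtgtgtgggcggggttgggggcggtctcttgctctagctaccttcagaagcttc
Sp140: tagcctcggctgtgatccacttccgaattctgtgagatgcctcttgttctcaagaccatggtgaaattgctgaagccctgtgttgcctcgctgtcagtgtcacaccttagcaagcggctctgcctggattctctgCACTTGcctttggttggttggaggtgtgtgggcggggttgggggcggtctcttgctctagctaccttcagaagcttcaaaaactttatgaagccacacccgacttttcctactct
Gm21149: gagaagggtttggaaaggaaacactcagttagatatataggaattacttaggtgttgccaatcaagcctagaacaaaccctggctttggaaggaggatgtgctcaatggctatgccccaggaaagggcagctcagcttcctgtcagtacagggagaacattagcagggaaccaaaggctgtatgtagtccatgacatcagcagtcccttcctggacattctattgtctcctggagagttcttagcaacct
Speer4c: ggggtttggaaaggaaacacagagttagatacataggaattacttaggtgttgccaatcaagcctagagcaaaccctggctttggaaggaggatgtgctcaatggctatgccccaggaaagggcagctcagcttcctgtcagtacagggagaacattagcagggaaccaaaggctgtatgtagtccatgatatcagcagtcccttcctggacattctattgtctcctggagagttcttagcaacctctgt
Gm17019: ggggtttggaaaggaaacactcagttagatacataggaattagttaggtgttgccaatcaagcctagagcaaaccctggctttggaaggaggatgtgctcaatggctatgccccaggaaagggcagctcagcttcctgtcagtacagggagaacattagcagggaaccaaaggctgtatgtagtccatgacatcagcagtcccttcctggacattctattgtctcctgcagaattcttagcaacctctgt
Gm15319: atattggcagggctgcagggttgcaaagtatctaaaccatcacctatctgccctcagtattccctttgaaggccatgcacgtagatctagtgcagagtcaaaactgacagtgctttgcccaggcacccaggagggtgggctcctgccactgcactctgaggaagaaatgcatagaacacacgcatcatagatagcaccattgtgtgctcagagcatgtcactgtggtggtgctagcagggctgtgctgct

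Over whole promoters of 300 bases (250 before and 50 after the start), local alignment of A530032D15Rik with C130026I21Rik gave 279 identical bases, 0 substitutions and 12 gap columns. A530032D15Rik and Sp140 had 270 identical bases and 1 substitution. Gm21149 matched Speer4c at 289 bases with 6 substitutions, and it matched Gm17019 equally. Gm15319 was identical over all 300 bases to Gm21119 in the same bin and to 4930467E23Rik, which lies before the bin on the same chromosome. Near-identical promoters thus lay at separate positions within a bin.

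A gene was counted as having a like promoter when the promoter of another gene, not overlapping it, shared at least 50% of its 20-base words. This held for 18 of 64 genes with a promoter in the 6 bins (28.1%), against 1415 of 27026 genes in the whole table (5.24%). By bin the counts were 6 of 15 on chromosome 1, 1 of 2 on chromosome 4, 6 of 9 on chromosome 5, 2 of 10 on chromosome 8 and 3 of 4 on chromosome X. On chromosome 4 the 1 gene, Gm52720, was like a gene on chromosome 13, and Sp110 on chromosome 1 was like genes on chromosomes 9 and 15, so these are not local copies. The chromosome 11 bin had 0 of 24. On chromosome X no like gene lay inside the bin. The promoter like that of Gm21637 began at 3836607 and the one like that of Spin2f at 33778489. The nearest to Spin2e began at 32436924. For the bins on chromosomes 4, 11 and X, this measure did not show copies within the bin, as the name multicopy cluster implies. Only 2 genes were measured on chromosome 4 and 4 on chromosome X. Of the 65 protein-coding genes in the 6 bins, 43 had a promoter in the table. On chromosome 5, Gm21190 had 14 like genes and Gm17019 had 9.

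CANNTG, whose pattern reads the same on both strands, was found in the 250 bases before the start in 66.2% of the 32851 promoters of the table. The version CAGCTG was in 13.0% of them, CAGGTG in 17.2% and CAGATG in 14.4%. In the chromosome 5 bin 1 of 9 promoters held a CANNTG, and in the chromosome 1 bin 13 of 17 did. The counts were 1 of 2 on chromosome 4, 7 of 10 on chromosome 8, 28 of 41 on chromosome 11 and 4 of 4 on chromosome X. Near-identical copies are each counted here, so these counts are not independent. On chromosome 5, 6 of the 9 genes with a promoter had a like promoter. Each of the 3 printed chromosome 1 promoters has 1 match, CACTTG, and the other 4 printed have none. A match describes letters and not a bound site.

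Across all places, 93 of 140 siNT summits had an siID4 summit within 200 bp (66.4%; 58.0 to 74.2%), a distance at which a summit is called shared below. The share over the whole siNT list was 51.8%. In the siID4 list 93 of 200 were shared (46.5%; 39.4 to 53.7%), against 19.5% over that whole list. With the scaffolds left out the shares were 50.8% and 30.5%. In the 6 bins alone 27 of 58 siNT summits (46.6%; 33.3 to 60.1%) and 27 of 99 siID4 summits (27.3%; 18.8 to 37.1%) were shared. The siNT share of the bins was thus not above that of the whole list. Outside these places the shares were 46.9% of 420 siNT summits and 15.3% of 1289 siID4 summits. A crowded region on chromosome 11 beyond 110 Mb holds many of the outside summits, and without it the outside shares were 51.2% and 19.5%. There were 1.43 siID4 summits for each siNT summit (1.15 to 1.79) in the chosen places, 3.07 (2.75 to 3.43) outside them, and 2.63 (2.33 to 2.98) outside them without that region of chromosome 11. The intervals of these ratios come from the exact binomial interval of the siID4 share of summits. Because the list lengths depend on depths that are unknown, the ratios do not measure a change in binding.

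**Figure D1:**
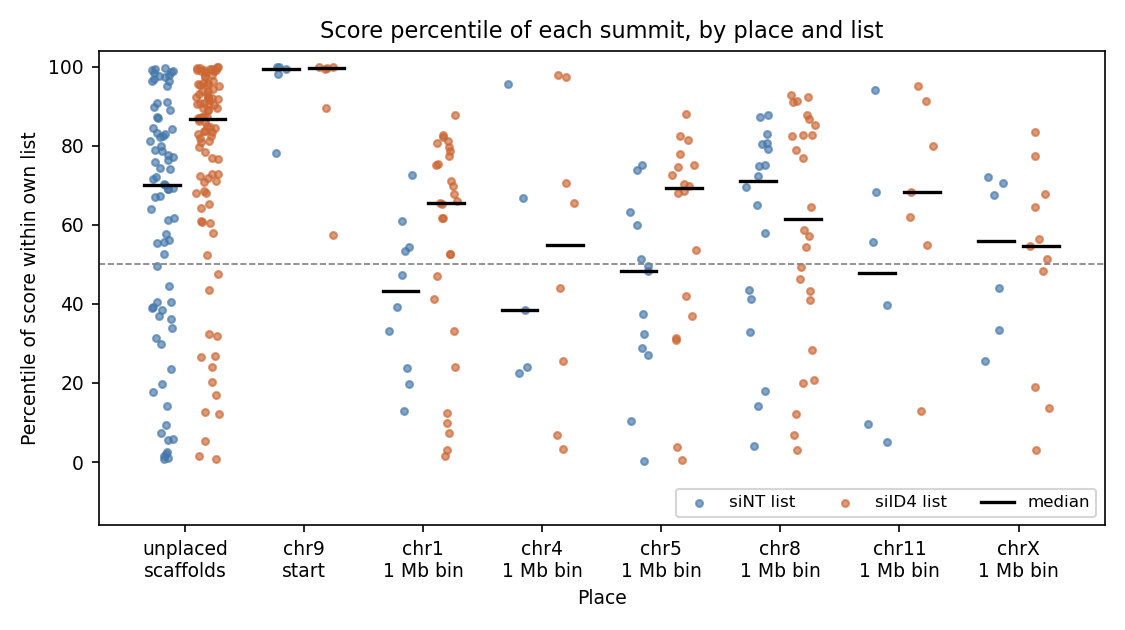
Percentile of each summit's score within its own list (vertical axis, 100 is the highest score) by place (horizontal axis), with siNT summits in blue, siID4 summits in orange, black bars for medians and a dashed line at percentile 50. The summits at the start of chromosome 9 sit at the top of both lists, with medians of 99.3 and 99.5, while the scaffolds span nearly the whole range.

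The score that comes with each summit ranked it within its list. Of the 10 highest siNT scores 9 were in these places, and of the 10 highest siID4 scores 8 were. Among the 20 highest the counts were 14 and 15. In both lists every such summit among the 20 highest was on a scaffold or at the start of chromosome 9. The 6 bins lay lower, with a best rank of 26 for siNT and of 33 for siID4. The plot of score percentiles by place shows these ranges.

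Unplaced scaffolds held 77 siNT and 95 siID4 summits on 12 scaffolds. The siID4 list had summits on all 12 and the siNT list on 10. Sharing was 61 of 77 in the siNT list (79.2%; 68.5 to 87.6%) and 61 of 95 in the siID4 list (64.2%; 53.7 to 73.8%). The ratio of siID4 to siNT summits was 1.23 (0.904 to 1.69), beside 2.66 for the whole lists. The median score percentile was 70.2 for siNT and 86.8 for siID4, and the median gap between neighbouring summits was 2498 bp and 2029 bp. No gene annotation was used for scaffolds, so no gene family is named there.

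Scaffold JH584304 alone carried 37 siNT and 42 siID4 summits over 110.9 kb, and 29 of each were shared. Its summits fell into a low first part and a high last part, divided here at 67 kb, a border set after the values were seen. In the first part the 25 siNT scores ran from 1.40 to 27.2 and the 29 siID4 scores from 2.51 to 30.1. None of these ranked among the 25 highest of its list. In the last part the 12 siNT scores ran from 11.7 to 476 with a median of 154, and the 13 siID4 scores from 19.8 to 461 with a median of 123. There 11 of 12 siNT and 11 of 13 siID4 summits were among the 25 highest of their lists.

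The highest scaffold summits were at positions 90399 (siNT, score 476, rank 3) and 90400 (siID4, score 461, rank 2) of JH584304. At 69016 both lists had a summit on the same base, with scores of 438 in siNT and 301 in siID4, rank 4 in each. At 81579 and 81578 the scores were 211 and 203, rank 7 in each list. At 113281 (siNT, score 221, rank 6) and 113279 (siID4, score 141, rank 12) the ranks differed more than in those 3 pairs. A summit at 103553 (siNT, score 68.3) and another at 103803 (siID4, score 114) were 250 bp apart and so did not count as shared.

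**Figure D2:**
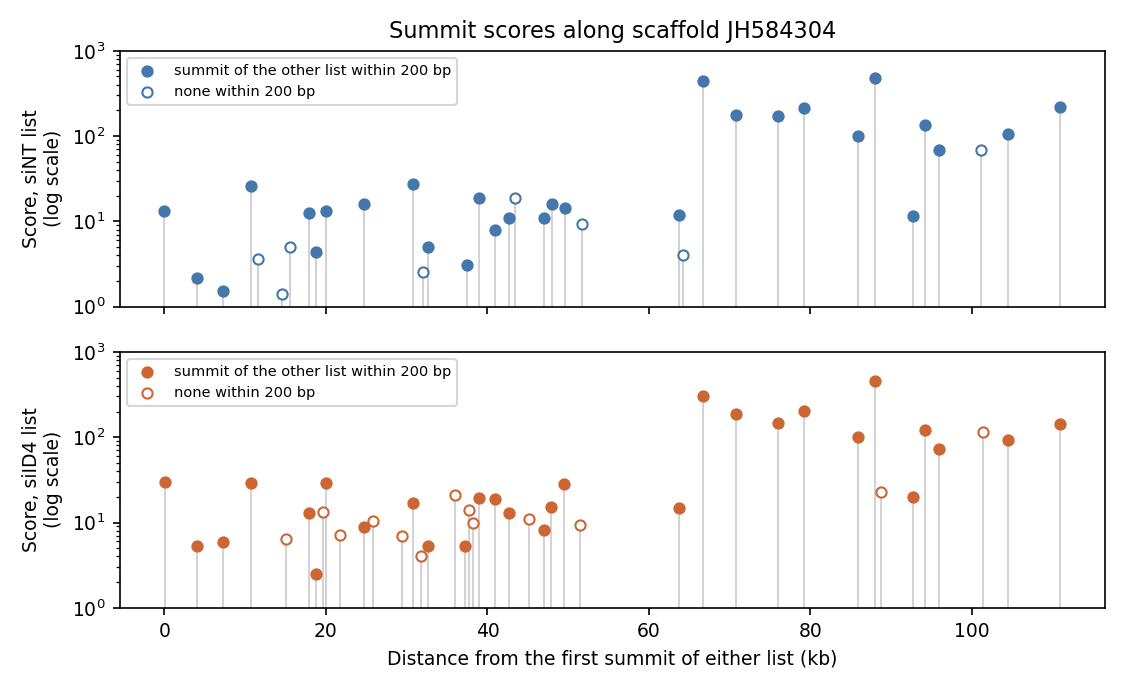
Scores (vertical axis, log scale) of the siNT summits (upper panel) and siID4 summits (lower panel) along scaffold JH584304, by distance in kb from its first summit (horizontal axis), with filled points for summits that have one of the other list within 200 bp and open points for those that do not. Scores rise near 67 kb in both panels, from at most 30.1 to as much as 476.

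Other scaffolds differed in how far the lists matched. GL456390 had 6 summits in each list and all 6 were shared. Its siNT scores ran from 6.57 to 29.1 and its siID4 scores from 4.95 to 39.0. GL456396 had 5 of 6 shared in each list. On GL456383 5 of 8 siNT and 5 of 10 siID4 summits were shared, and the highest pair was 1 bp apart, with scores of 75.8 in siNT and 55.1 in siID4. GL456393 had 6 shared summits among 7 in siNT and 8 in siID4.

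The highest scaffold summit with none of the other list within 1 kb was on GL456392 at 22158, with an siID4 score of 114 (rank 15) and the nearest siNT summit 11669 bp away. GL456392 had 3 siNT and 7 siID4 summits, of which 2 were shared. GL456372 had 3 siID4 summits, with scores of 15.1, 12.1 and 6.95, and no siNT summit. GL456387 had 1 siID4 summit with a score of 10.1. GL456381 had 1 siNT and 2 siID4 summits and none was shared. Sharing was thus not high on every scaffold.

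The start of chromosome 9 held the highest score of each list. At 3024458 the siNT score was 1988 and at 3024457 the siID4 score was 2053, rank 1 in both. At 3003491 both lists had a summit on the same base, with scores of 507 in siNT and 409 in siID4. These summits were followed by 3020506 (siNT, 285) with 3020504 (siID4, 277), and by 3029753 (siNT, 155) with 3029755 (siID4, 173). A lower pair lay at 3012456 (siNT, 15.4) and 3012441 (siID4, 15.5).

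All 5 siNT summits at the start of chromosome 9 were shared, the most distant by 15 bp, and 5 of 6 siID4 summits were. The unshared siID4 summit, at 3014095, had a score of 4.89. The median gaps were 6673 bp in siNT and 5298 bp in siID4. No gene body held these summits. The nearest gene to the top pair was Mir101c, a microRNA gene at chr9:3038669-3038743, 14212 bp from the siID4 summit. The nearest protein-coding gene was Alkbh8, which encodes a tRNA methyltransferase, at 310774 bp, so this place was not a gene cluster. The next summit on the chromosome was at 20976846 in siNT and at 14989076 in siID4.

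The chromosome 1 bin held 10 siNT and 29 siID4 summits. Its named family is Sp100, Sp110 and Sp140, whose products are interferon-inducible nuclear body proteins, and 0 summits of either list lay inside Sp100. Its ratio of 2.90 siID4 summits to 1 siNT summit (1.37 to 6.67) was the highest value of the 8 places and stood beside 2.66 (2.41 to 2.94) for the whole lists. Sharing was 6 of 10 in siNT and 6 of 29 in siID4 (20.7%; 7.99 to 39.7%), beside 51.8% and 19.5% over the whole lists. With scores of at least 5 in both lists, which drops any pair with a lower score, the siID4 share was 11.1% (1.38 to 34.7%). Above the median score of each list the ratio was 5 (1.67 to 20.1), an interval that takes in 2.66. These medians are unlike, 6.68 in siNT and 4.31 in siID4. The median score percentile was 43.3 in siNT and 65.4 in siID4. Median gaps were 32560 bp and 7879 bp. Scores stayed low, from 2.36 to 12.8 in siNT and from 1.37 to 14.1 in siID4.

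Summits in the chromosome 1 bin lay mostly inside genes, unlike those of the other 5 bins by count. Of 10 siNT summits 9 were inside a protein-coding gene, and of 29 siID4 summits 24 were. Gm38510 (chr1:85155201-85309015), a predicted gene, held 3 siNT and 12 siID4 summits. C130026I21Rik (chr1:85241286-85282883), which lies within the span of Gm38510 and so shares its summits, held 2 and 8. Sp110 (chr1:85570735-85610850) held 4 and 5, and Sp140 (chr1:85587491-85645040), which overlaps it, held 1 and 3. Gm7592 held 1 and 4, and A530032D15Rik held 1 and 3.

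The highest siNT summit of the bin was at 85260344 in Gm38510, with a score of 12.8. The highest siID4 summit was at 85486167 in Gm7592, with a score of 14.1 and no siNT summit within 92133 bp. C130026I21Rik, whose promoter is printed above, had a summit 482 bp downstream of its start in siNT (score 3.99) and 479 bp downstream in siID4 (score 9.26). Sp140 had 1 siID4 summit 340 bp downstream of its start (score 7.90), and the nearest siNT summit to it was 7796 bp away. At A530032D15Rik, the nearest siID4 summit was 2618 bp upstream of the start and the nearest siNT summit 19452 bp downstream. Of these 3 near-identical promoters, C130026I21Rik was the only gene with a summit of both lists within 1 kb of its start.

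The chromosome 5 bin held 13 siNT and 18 siID4 summits. In each list 5 were shared (38.5% and 27.8%), beside 51.8% and 19.5% over the whole lists. With only summits that scored at least 5 the shares were 14.3% (0.361 to 57.9%) and 9.09% (0.230 to 41.3%). That limit was applied to both lists before pairing, so a pair with either score below 5 was lost. Pairs with siNT scores of 2.24, 3.91, 3.59 and 4.52 were lost in this way. The named family there was Speer, with 3 genes of the 16 annotated. Scores ran from 1.32 to 13.7 in siNT and from 1.32 to 14.2 in siID4, and the median gaps were 21145 bp and 10453 bp. None of the 5 pairs was within 5 bp, and their median distance was 12 bp. A stretch of 420338 bp in siNT and 431768 bp in siID4 had no summit. Gaps of 4 to 5 kb, a range chosen after the values were seen, were 4 of 12 in siNT and 3 of 17 in siID4. On scaffolds they were 9 of 67 and 5 of 83. Over the whole lists they were 18 of 529 and 34 of 1456, where the median gaps were far longer, 543787 and 135431 bp.

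The highest siNT summit on chromosome 5 lay inside Gm21149 at 15472047, with a score of 13.7. A further siNT summit lay 251 bp upstream of the Gm21149 start, at 15476787, with a score of 3.47 and the nearest siID4 summit 7050 bp away. The highest siID4 summit, at 15679118 with a score of 14.2, had no siNT summit within 41767 bp. Near Gm17019, whose promoter matches that of Gm21149, the lists had a pair 4452 bp (siNT, score 6.59) and 4463 bp (siID4, score 10.2) upstream of the start. Speer4c held 1 siID4 summit and no siNT summit.

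The chromosome 8 bin held the most summits of the 6 bins over both lists together, 44, with 18 in siNT and 26 in siID4. In siID4 alone the chromosome 1 bin held more, 29. The chromosome 8 bin had 8 shared pairs (44.4% and 30.8%), beside 51.8% and 19.5% over the whole lists. It has 25 annotated genes, of which 14 are pseudogenes (56%), 21 have Gm symbols and 4 are beta-defensin genes by symbol or synonym. Beta-defensins are secreted antimicrobial peptides. The one named by symbol, Defb33, begins at 20892667 and held 0 summits. The last summits of the bin lay before it, at 20827700 in siNT and 20828909 in siID4. The siNT scores here were the highest by percentile of the 6 bins, with a median of 71.0, and the siID4 median was 61.6. The highest siNT summit was at 20596281 in the pseudogene Gm21112 (score 24.8), and the highest siID4 summit, at 20597554 (score 20.5), was 1273 bp from it. Of the 8 pairs 7 were within 5 bp, and a summit at 20602470 was on the same base in both lists (scores 18.4 and 19.9).

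Spearman's rho between the scores of the 8 chromosome 8 pairs was 0.31. It was 0.77 over the 6 chromosome 1 pairs, 0.88 over the 61 scaffold pairs and 0.81 over the 197 pairs elsewhere. Each is a description over pairs that share inputs, and a rho over 8 or 6 pairs is uncertain. The siNT scores of the chromosome 8 pairs ran only from 2.52 to 18.4, and those of the scaffold pairs from 1.40 to 476. The siNT summit at 20514104 was at percentile 14.1 of its list, and the siID4 summit 3 bp from it was at percentile 87.6. Within 1 kb of these, siNT had a summit at 20514693 at percentile 87.3, and siID4 had a summit 226 bp from it at percentile 41.0. The order of these neighbouring summits by score was thus opposite in the lists. Gm21119 held 1 summit of each list inside its body. The nearest summits to its start were 2007 bp (siNT) and 6512 bp (siID4) upstream, and those to the start of Gm15319, which has the same promoter letters, were 15651 bp and 15650 bp upstream.

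The chromosome 4 bin held 5 siNT and 8 siID4 summits. It had 3 shared in each list (60% and 37.5%), beside 51.8% and 19.5% over the whole lists. Its named family is Vmn1r, vomeronasal receptors of pheromone sensing, with 4 genes among 30. No summit was inside a protein-coding gene. The top pair was 1 bp apart at 3090125 (siNT, score 50.7, rank 26) and 3090126 (siID4, score 51.0, rank 33). A second siID4 summit at 3090932, with a score of 38.5 and rank 41, was 807 bp from the nearest siNT summit. Vmn1r2 was the nearest protein-coding gene to the top siID4 summit, at 81957 bp, and the pseudogene Vmn1r-ps2 the nearest gene of any kind, at 13573 bp.

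The chromosome 11 bin held 6 siNT and 7 siID4 summits, all between 3100511 and 3161588. Of these 3 pairs were shared (50% and 42.9%), beside 51.8% and 19.5% over the whole lists. At a distance of 500 bp the shares in the bin were 83.3% and 71.4%. The bin has 43 genes, and Sfi1, which encodes a centrin-binding protein of the centrosome, was the only protein-coding one with a summit inside, 2 in siNT and 3 in siID4. The top pair was at 3102306 (siNT, score 39.8, rank 34) and 3102303 (siID4, score 28.6, rank 73), and the nearest gene of any kind was the pseudogene Pisd-ps1. At 3132409, inside Sfi1, both lists had a summit on the same base, with scores of 2.16 in siNT and 5.53 in siID4. An siID4 summit at 3161588 with a score of 17.6 was 10978 bp from any siNT summit.

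The chromosome X bin held 6 siNT and 11 siID4 summits. In each list 2 were shared (33.3% and 18.2%), beside 51.8% and 19.5% over the whole lists. At a distance of 100 bp the shares in the bin were 16.7% and 9.09%, and with scores of at least 5 both were 50% (6.76 to 93.2%). Its families were Btbd35f, BTB-domain genes of the X chromosome, with 4 members, and Spin2, relatives of the histone reader spindlin, with 2. The Spin2 family was added after the values were seen. No summit was inside a protein-coding gene. The highest siNT summit was at 31160802 in the pseudogene Gm21711 (score 12.7), and the highest siID4 summit was at 31148338 (score 10.9), paired with a siNT summit of 12.2 at 163 bp. Btbd35f29 was the nearest protein-coding gene to both.

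**Figure D3:**
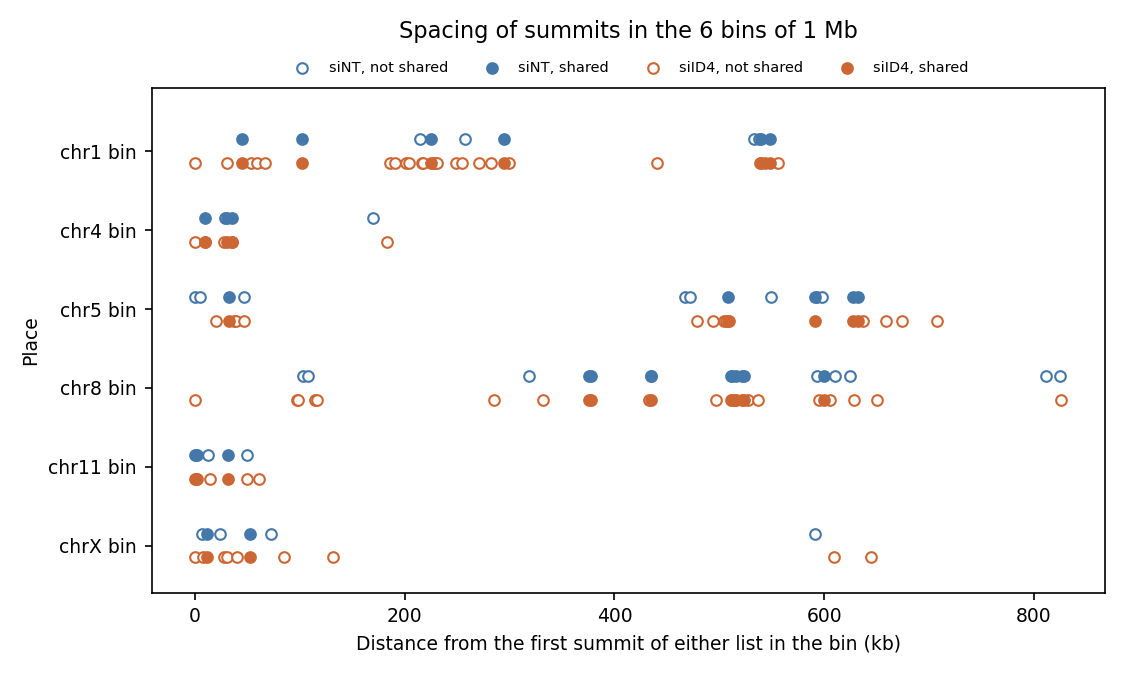
Positions of siNT (blue) and siID4 (orange) summits in the 6 bins (vertical axis), as distance in kb from the first summit of either list in that bin (horizontal axis), with filled points for shared summits, drawn on top, and open points for others. Summits gather in groups separated by wide empty stretches, and those of chromosome 11 stay within 61.1 kb.

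The 6 bins together held 156 annotated genes, of which 50 were pseudogenes (32.1%), against 21.2% of the 49939 genes on chromosomes. None was a Defa, Vmn2r, Slx, Duxf, histone or ribosomal RNA gene by its symbol. In the 6 bins 65.5% of siNT and 60.6% of siID4 summits were outside all genes, against 48.1% and 45.3% elsewhere. Of 648 bins of 1 Mb with a summit, 22 had at least 11 summits in the lists together, and 11 of these were on distal chromosome 11. The places described here gave 7 of the others. The remaining 4 were not chosen: the bins from 3 Mb on chromosome 17 and 147 Mb on chromosome 4 with 13 summits each, 146 Mb on chromosome 4 with 12 and 19 Mb on chromosome 8 with 11. The chosen bins on chromosomes 4 and 11 also had 13 each.

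Beside the borders, the bin before that of chromosome 8 had 2 siNT and 9 siID4 summits, and the bin before that of chromosome 5 had 3 and 7. The last siNT summit before the chromosome 8 border was at 19912677 with a score of 21.3, and the last before the chromosome 5 border was at 14990818 with a score of 6.89. Just inside these borders the first siNT summits were at 20105821 (score 2.70) and 15004838 (score 6.97). At the chromosome 1 border the last siID4 summit outside was at 84994158 (score 2.82) and the first inside at 85045378 (score 4.40). The runs of summits on chromosomes 5 and 8 thus ran past the borders of their bins.

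In both lists sharing was higher in the top quartile of scores than in the lowest, over all places together and elsewhere. The siNT summits of the 6 bins showed no such rise. Their shares were 44.4% in the top quartile (13.7 to 78.8%) and 58.3% in the lowest (27.7 to 84.8%), with intervals that overlap widely. In the lowest quartile of siNT scores 13 of 25 summits in the places were shared (52%; 31.3 to 72.2%), against 8 of 115 elsewhere (6.96%; 3.05 to 13.2%). In the highest quartile the counts were 38 of 47 (80.9%; 66.7 to 90.9%) and 88 of 93 (94.6%; 87.9 to 98.2%). In the 6 bins the siNT shares were 7 of 12, 7 of 17, 9 of 20 and 4 of 9 from the lowest quartile to the highest. On scaffolds they were 6 of 13, 8 of 12, 18 of 19 and 29 of 33. In the siID4 list the scaffold shares were 12.5%, 33.3%, 62.5% and 73.8%, those of the 6 bins 5.26%, 20%, 29.0% and 41.2%, and those elsewhere 2.02%, 4.58%, 8.02% and 55.0%. Low-scoring siNT summits in these places thus had a partner more often by count than those elsewhere. Summits lie closer together in these places, with a median siNT gap of 4616 bp, and how much of the sharing that spacing gives was not tested.

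**Figure D4:**
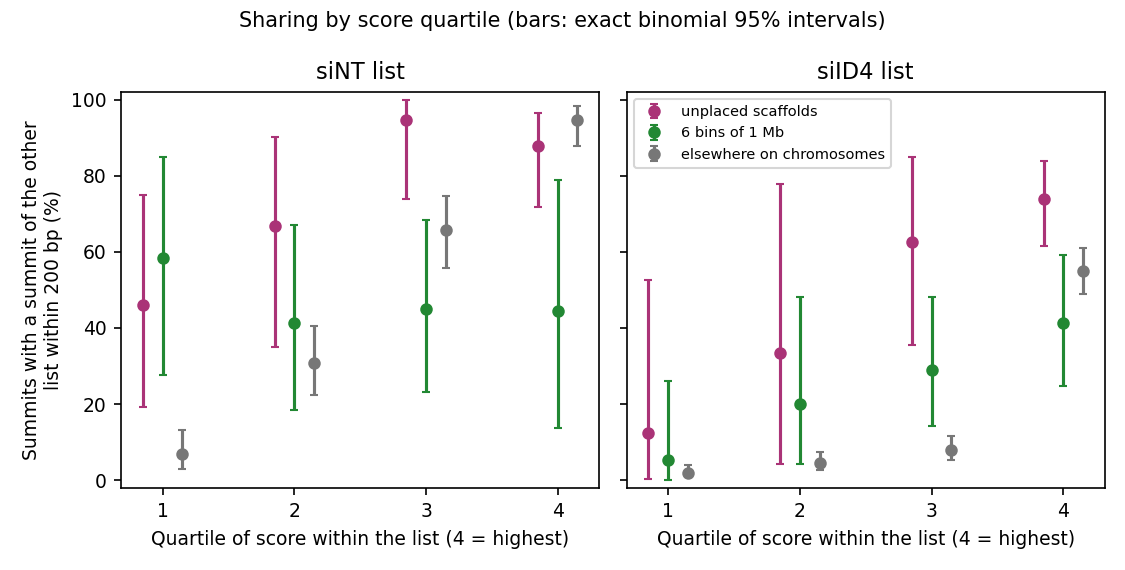
Percent of summits with a summit of the other list within 200 bp (vertical axis) by quartile of score within the list (horizontal axis, 4 is the highest), for unplaced scaffolds, the 6 bins and all other summits, with bars for exact binomial 95% intervals. In the siNT panel the lowest quartile elsewhere was shared in 6.96% of 115 summits, and that of the 6 bins in 58.3% of only 12 (27.7 to 84.8%).

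Of the 93 pairs 56 were within 5 bp (60.2%; 49.5 to 70.2%), with a median distance of 3 bp. Of the 197 pairs elsewhere 49 were (24.9%; 19.0 to 31.5%), with a median of 20 bp. The places differed in this: the count was 38 of 61 on scaffolds, 4 of 5 at the start of chromosome 9, 7 of 8 on chromosome 8, 3 of 3 on chromosome 11 and 2 of 3 on chromosome 4. It was only 2 of 6 on chromosome 1, 0 of 5 on chromosome 5 and 0 of 2 on chromosome X. Over all places the gap held among pairs in the top quartile of siNT scores, where the shares were 68.4% of 38 and 29.5% of 88, and below it, where they were 54.5% of 55 and 21.1% of 109. Pairs on exactly the same base numbered 8 in these places and 7 elsewhere.

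**Figure D5:**
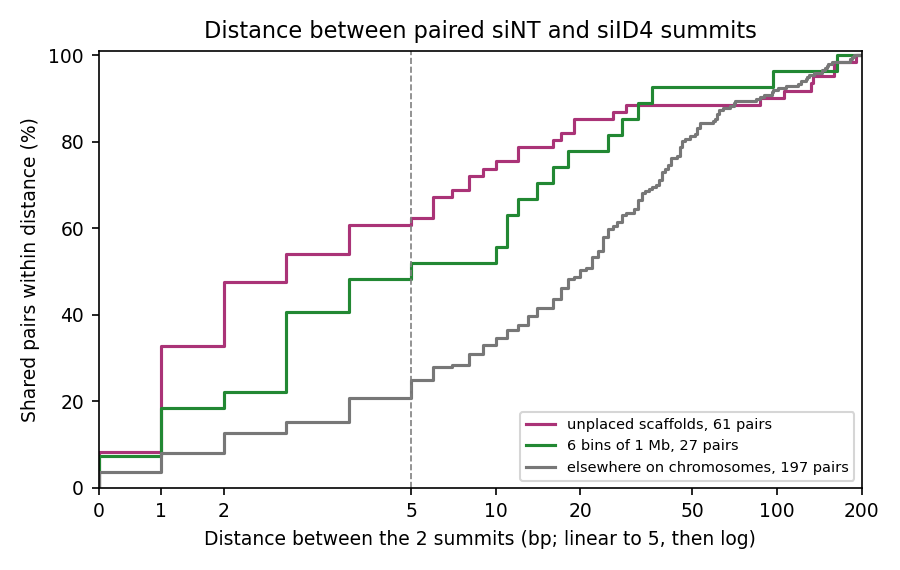
Cumulative percent of shared pairs (vertical axis) within a given distance between the siNT and the siID4 summit (horizontal axis, bp, linear to 5 and then log), for 61 scaffold pairs, 27 pairs in the 6 bins and 197 pairs elsewhere, with a dashed line at 5 bp. At that line the curves stand at 62.3%, 51.9% and 24.9%.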

How the data were processed

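HEB ChIP-seq summits were analysed as the authors deposited them, in 1 list per siRNA that gives the base, the name and the score of every peak summit. The deposited score has the layout of a −log10 q value but no stated unit, so it served for ranks inside 1 list. The limit of at least 5 was applied alike to both lists, whose scores may not be on 1 scale. Per the submitters' processing notes, the authors used SAMtools and the build mm10. For aligner, peak caller and the combining of libraries, nothing is given in the sources used here. Positions are 1-based. Depth per library is unknown, so precision is counting error over summits. Lists, shares and intervals were computed with Python 3.11.15, pandas 2.3.3, scipy 1.17.1 and Biopython 1.88, and the code was tested on simulated data. Sharing meant a summit of the other list within 200 bp. Named genes were those holding summits, up to 6 per place by summits of both lists, and the nearest protein-coding gene of each top summit. The planned sequence comparison at the summits was replaced by RefSeq promoters, since no genome was used here. The members and lists were chosen with earlier results of these data known. Other sharing distances, score limits, merging and borders were tried.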

Additional observations from a re-analysis of the deposited data

How the results depend on the processing

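At a sharing distance of 500 bp 75.7% of siNT summits were shared. With all scaffolds left out, a setting chosen after seeing the data, 50.8% of siNT and 30.5% of siID4 summits were shared, and the median siID4 score percentile was 68.6; the cause was not tested. With scores of at least 5 that median was 63.1, and with every summit it was 76.7. In each setting the percentiles were ranked anew among the summits kept, so these medians have unlike bases. In the other settings run (50 and 100 bp, scores of at least 5, merging within 500 bp, scaffold JH584304 left out, the last also chosen after seeing the data) siNT sharing was 60 to 69.8% and siID4 sharing 40.5 to 47.9%, and at 500 bp siID4 sharing was 53.0%. The ratio of siID4 to siNT summits ran from 1.42 to 1.77. A further 180 values were compared: shares, ratios and counts of single places, and score percentiles of single places and of all places together. Of these 173 stayed within the limits set and 7 did not. The limits were the counting interval of the main value or, for counts of summits, which have no interval, a fixed factor. No paired analysis was possible because there is 1 list per siRNA, and for the same reason no replicate could be left out. Low counts per bin limit what each bin can show.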

Other observations

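Peak names are numbered, and some numbers have no summit in the lists. In the siNT list 38 of 598 numbers are absent and in the siID4 list 51 of 1540. At the start of chromosome 9, 6 absent numbers fell between the summits in each list. A further 2 fell between the last summit of chromosome 8 and the first of chromosome 9, and 5 between 3029753 and 20976846 in siNT or 3029755 and 14989076 in siID4, so their positions are not known. Between the last summit of the chromosome 11 bin and the next on that chromosome 2 numbers were absent in siNT and 6 in siID4. Between and beside the summits of the scaffolds and of the other 5 bins 0 were absent. Why these numbers are absent is not given in the sources used here.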
